A study of Mus musculus with 6 samples.

Results

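The 9 genes described here encode transcription factors that set or tune the fate of helper T cells: *Tbx21*, *Rora*, *Gata3*, *Foxp3*, *Bcl6*, *Batf*, *Batf3*, *Irf4* and *Bhlhe40*. They were taken by name from the 19449 genes of the single-cell table, and all 9 had counts. They were followed in deposited cluster 2, which held 6830 of 38057 cells, and then across the other deposited clusters. The cells were CD45+ leukocytes sorted from the spinal cord of C57BL/6 mice with experimental autoimmune encephalomyelitis (EAE). Disease had been induced in naive recipients by transfer of CD4+ T cells that react to myelin oligodendrocyte glycoprotein. The donor cells came from immunized mice and had been cultured for 96 h with antigen, IL-23 and IL-1α and an antibody against IFN-γ. Recipients were young adult (8 to 12 weeks) or middle-aged (40 to 44 weeks), and each age was sampled on day 6 and on day 10 posttransfer.

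Each age and day is 1 library from 4 pooled spinal cords, so an age has no replicate within a day, and the age of the recipient cannot be told apart from the handling of that library. The same holds for the day, which has no replicate within an age. A change with day cannot be told apart from the harvest and handling of the libraries. All recipients had received the polarized donor cells, so no library shows T cells without transfer. Transcripts do not separate donor from host T cells, and the levels below are those of both together. The table gives unique molecular identifiers (UMIs, tags that count each captured transcript once). Levels are the UMIs of a gene over all cells of a cluster and library, per 1000000 UMIs of those cells (CPM). They compare libraries and clusters, and they compare genes only as captured 3′ ends, without a correction for length.

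A naive CD4+ T cell that meets antigen can take several fates. T-bet, from *Tbx21*, drives the Th1 fate with IFN-γ. RORα, from *Rora*, acts in the IL-17-producing Th17 fate. GATA3 drives the Th2 fate, FOXP3 the regulatory T cell (Treg) fate, and BCL6 the follicular helper (Tfh) fate. BATF and BATF3 pair with JUN proteins, and BATF with JUN binds DNA together with IRF4 after T cell receptor signals. BHLHE40 is a basic helix-loop-helix repressor that is needed for GM-CSF production and for EAE. Outside T cells, BATF3 is known for its part in conventional dendritic cells, IRF4 for its part in B cells and plasma cells, and BCL6 for its part in germinal center B cells.

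Promoters are shown for *Bcl6*, the member that changed most between days, and for *Batf3*, which passed in each of the 5 comparisons between classes of T cells. RefSeq promoters of build GRCm38.p6, from 250 bases before to 50 after a start, were found for 8 of the 9 members, 10 promoters in all. Capitals mark matches to CACGTG, an E-box that BHLHE40 can bind, and to TTCNNNGAA, the letters that STAT dimers favor.
*Bcl6*, first promoter, chr16:23988803-23989102, minus strand: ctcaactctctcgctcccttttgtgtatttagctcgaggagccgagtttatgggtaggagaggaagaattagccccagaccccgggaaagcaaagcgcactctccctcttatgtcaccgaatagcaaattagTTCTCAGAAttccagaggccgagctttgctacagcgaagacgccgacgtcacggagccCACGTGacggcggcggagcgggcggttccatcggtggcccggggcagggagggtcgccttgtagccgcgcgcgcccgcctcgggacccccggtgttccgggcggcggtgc
*Bcl6*, second promoter, chr16:23981234-23981533, minus strand: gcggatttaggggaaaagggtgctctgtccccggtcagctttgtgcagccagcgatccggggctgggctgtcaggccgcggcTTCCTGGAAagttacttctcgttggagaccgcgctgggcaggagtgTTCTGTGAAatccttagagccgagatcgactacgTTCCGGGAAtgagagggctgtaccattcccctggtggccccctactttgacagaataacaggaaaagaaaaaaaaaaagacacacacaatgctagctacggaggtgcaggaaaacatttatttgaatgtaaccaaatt
*Batf3*, chr1:191098164-191098463, plus strand: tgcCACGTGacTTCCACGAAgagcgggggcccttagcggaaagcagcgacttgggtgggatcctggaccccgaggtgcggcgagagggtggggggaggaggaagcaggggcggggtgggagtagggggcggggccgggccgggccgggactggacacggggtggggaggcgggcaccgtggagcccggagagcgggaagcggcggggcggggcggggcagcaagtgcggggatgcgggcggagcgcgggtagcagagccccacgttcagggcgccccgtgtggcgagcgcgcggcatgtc

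The first *Bcl6* promoter holds CACGTG 60 bases before the start and TTCTCAGAA 118 bases before it. The second holds TTCNNNGAA at 3 places, as TTCCTGGAA 168, TTCTGTGAA 122 and TTCCGGGAA 88 bases before the start. The *Batf3* promoter holds CACGTG 247 and TTCCACGAA 239 bases before its start. Of 32851 promoters of this length, 7.15% held CACGTG and 8.3% held TTCNNNGAA on either strand. Other patterns were searched on both strands too. TGANTCA, the letters of AP-1 and so of BATF with JUN, is in 7.81% of all promoters and in none of the 10. A pair of GAAA with NN between them, as IRF factors bind (3.44%), AGGTGTGA of T-box factors (1.28%) and TGTTTAC of forkhead factors (3.65%) were also in none of them. AGATAA of GATA factors (11.2%) was in 1 of the 2 *Foxp3* promoters and in that of *Batf*, and AGGTCA of ROR factors (16.3%) was in the same *Foxp3* promoter at 2 places, where TTCCAAGAA lies 139 bases before the start. These matches overlapped no other match, and they are descriptions of the letters only.

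Cluster 2 carried the markers of T cells. Its summed level of *Cd3d*, *Cd3e*, *Cd3g*, *Trac*, *Trbc1*, *Trbc2* and *Cd4* ran from 5055 to 5609 CPM, and *Cd4* alone from 169 to 265 CPM. It was not CD4+ T cells only. *Cd8a* and *Cd8b1* together were at 185 and 137 CPM on day 6 and at 85.3 and 57.7 CPM on day 10, young first, and 3 γδ T cell genes summed to 52.9 to 95 CPM. Of the 6830 cells, 1307, 1137, 1923 and 2463 were from the young day 6, middle-aged day 6, young day 10 and middle-aged day 10 libraries, which is the order of all values below. Their median depth was 4715, 5034, 6225 and 5345 UMIs per cell, so shares of cells with a UMI are also given after thinning each cell to 2000 UMIs. The 10 neutrophil genes summed to 94.3, 240, 487 and 126 CPM, which is highest in the young day 10 library, and cells carrying markers of other lineages numbered 36, 40, 445 and 129. Barcodes shared by libraries numbered 154 of 37903 in all and 6 of 6824 in cluster 2.

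**Figure D1:**
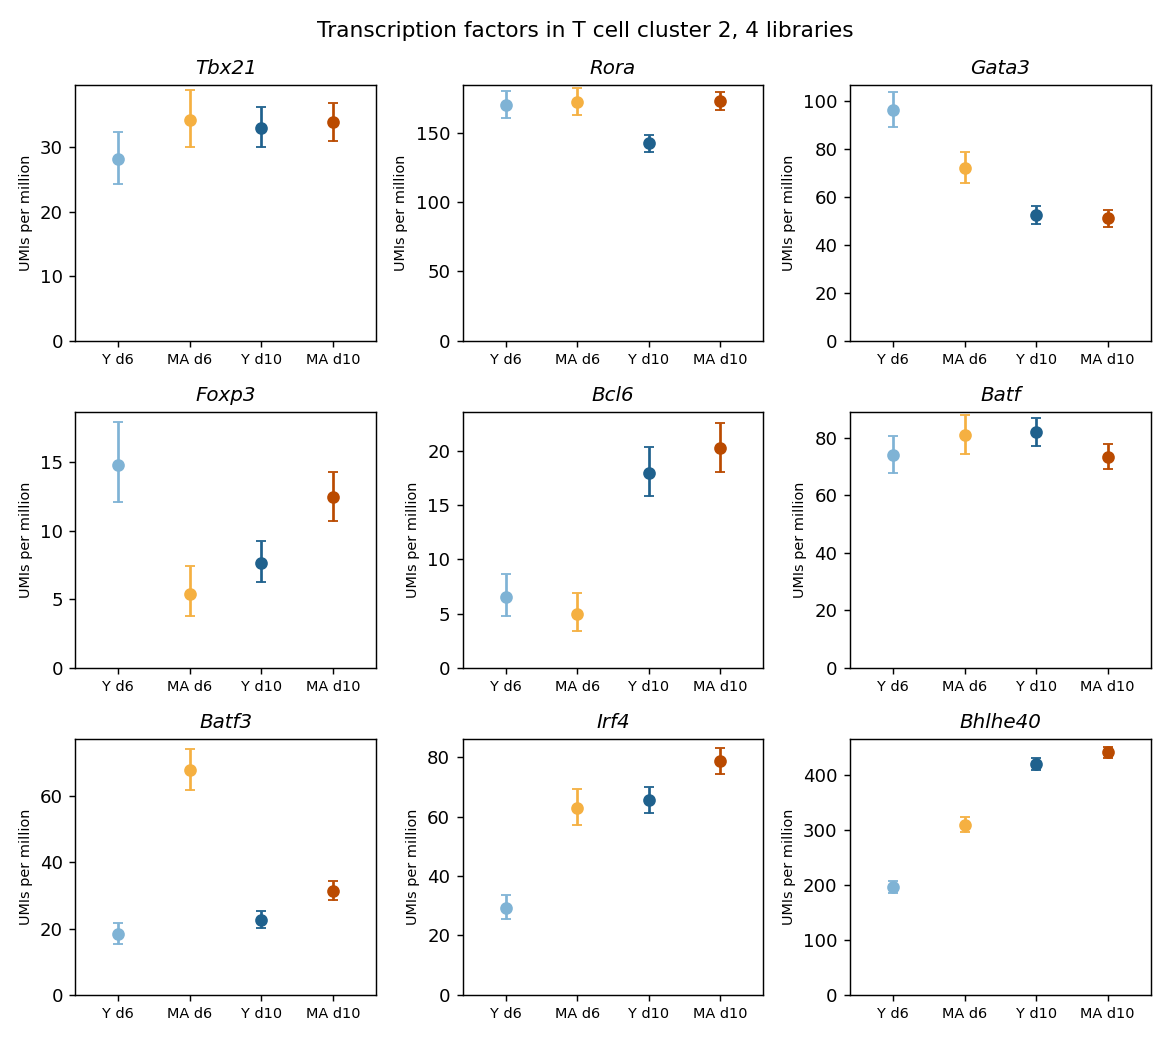
Level (CPM) of each of the 9 genes in T cell cluster 2 (vertical axes, each from 0) in the 4 libraries (Y young, MA middle-aged, d6 and d10 days), with points for the level and bars for the 95% counting interval. *Bcl6* and *Bhlhe40* are higher in both day 10 libraries, *Batf3* stands highest in the middle-aged day 6 library, and *Batf* is level.

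Among the fate-setting factors, *Tbx21* and *Rora* were steady. *Tbx21* (chr11:97098071-97115331, GRCm38) had 28.1, 34.2, 33.0 and 33.9 CPM. The young day 6 library was lowest, and the other three lay close together. *Rora* (chr9:68653786-69388246) had 170, 173, 143 and 173 CPM, with only the young day 10 library lower. By edgeR's quasi-likelihood test over the 4 libraries, neither gene passed for age or for day: the log2 change with age was 0.15 (SE 0.18) for *Tbx21* and 0.15 (SE 0.18) for *Rora*, both with adjusted p of 1.00, and the change with day was 0.21 (SE 0.18, adjusted p = 0.629) and -0.02 (SE 0.18, adjusted p = 0.980). The share of T cells with a *Tbx21* UMI was 12.1%, 16.7%, 18.8% and 16.1%, against 0.363% in cluster 1, where monocyte and macrophage markers lead and the median depth is 9106 UMIs. For *Rora* the shares were 42.9%, 46.4%, 47.5% and 52.7%.

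*Gata3* (chr2:9857078-9890034) had 96.3, 71.8, 52.3 and 50.9 CPM. Both day 6 libraries were above both day 10 libraries, and the young day 6 library was highest. The log2 change with day was -0.58 (SE 0.18), which missed the threshold of 0.05 (adjusted p = 0.0557). It passed in 6 of 11 alternatives, which are without cells carrying CD8, γδ or NK genes (-0.65, adjusted p = 0.0387), without cells carrying markers of other lineages, without a filter on low counts, with other size factors, and without either day 6 library. Cells with a *Gata3* UMI were 29.0%, 26.6%, 25.2% and 21.8%, against 0.384% in cluster 1.

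*Foxp3* (chrX:7573644-7595245) was rare. Its UMIs numbered 105, 37, 106 and 192, or 14.8, 5.39, 7.65 and 12.4 CPM. The level was lowest in the middle-aged day 6 library and highest in the young day 6 library, so neither the ages nor the days separated. Cells with a *Foxp3* UMI were 2.83% (2.0% to 3.88%), 1.67% (1.01% to 2.60%), 2.50% (1.85% to 3.30%) and 3.57% (2.88% to 4.38%), with exact binomial intervals. Neighbors in this order overlap, while the interval of the middle-aged day 6 library lies below that of the middle-aged day 10 library. After thinning the shares were 1.73%, 1.00%, 1.22% and 1.82%. In cluster 1 the share was 0.124%.

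Set against the young library of its day, the middle-aged library had less *Foxp3* on day 6, with a log2 ratio of -1.46 (-2.04 to -0.91), and more on day 10, with 0.70 (0.35 to 1.06). These intervals are exact conditional binomial intervals, as are all those of ratios below, and they cover counting error only. They take each UMI as a separate draw, so they are too narrow where UMIs are bunched in few cells. The 10 richest cells held 52.4%, 73.0%, 39.6% and 27.6% of the *Foxp3* UMIs. From day 6 to day 10 the ratio was -0.95 (-1.36 to -0.55) in young and 1.20 (0.69 to 1.75) in middle-aged recipients. With 1 library per age and day, that difference in direction was not tested. The fits over all 4 libraries gave -0.23 (SE 0.33, adjusted p = 1.00) for age and 0.16 (SE 0.33, adjusted p = 0.891) for day, and without the young day 6 library the value for day was 0.96 (adjusted p = 0.0060). Fewer *Foxp3*-expressing cells and less *Foxp3* RNA per cell cannot be told apart in a summed level.

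*Bcl6* (chr16:23965052-23988852) rose with day. It had 6.50, 4.95, 18.0 and 20.3 CPM, so both day 10 libraries were well above both day 6 libraries, and the ages overlapped. The log2 change was 1.85 (SE 0.24, adjusted p = 3.7e-05 by edgeR), and it passed in all 11 alternatives, from 1.63 to 2.01. Within each age the ratio was 1.47 (1.01 to 1.95) in young and 2.03 (1.52 to 2.59) in middle-aged recipients. Cells with a UMI went from 3.14% and 2.55% on day 6 to 10.4% and 9.58% on day 10, and after thinning from 1.25% and 0.91% to 3.14% and 3.61%. *Bcl6* is also expressed by neutrophils and myeloid cells, and the neutrophil genes in cluster 2 were highest in the young day 10 library. Without cells carrying markers of other lineages the ratios were 1.47 (0.99 to 1.97) and 2.30 (1.73 to 2.93). Cells with a *Bcl6* UMI were 14.2% in cluster 1, 17.1% in neutrophil-like cluster 6 and 5.01% in NK-like cluster 9, none of which is known to lack the gene. The part of free *Bcl6* RNA in the T cell share was not tested.

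Of the other Tfh and central memory genes, 8 of 10 were tested. *Tox2*, of the TOX family, rose with day, and *Lef1*, a TCF-family factor of naive and memory T cells, fell. *Tcf7*, its close relative, changed by -0.66 (SE 0.23, adjusted p = 0.096).

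Of the AP-1 and IRF factors, *Batf* was the level one. *Batf* (chr12:85686669-85709087) had 74.1, 81.0, 82.0 and 73.5 CPM, within a range that neither age nor day ordered. The fitted changes were -0.02 (SE 0.18) with age and 0.11 (SE 0.18) with day, with adjusted p of 1.00 and 0.849. Cells with a UMI were 28.3%, 30.2%, 34.6% and 29.6%.

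*Batf3* (chr1:191097847-191108945) varied most. It had 18.4, 67.8, 22.6 and 31.3 CPM, from 130, 465, 313 and 484 UMIs, with the middle-aged day 6 library far above the other three. The middle-aged library was higher on both days, with a log2 ratio of 1.88 (1.60 to 2.18) on day 6 and 0.47 (0.26 to 0.68) on day 10. The fit gave a change with age of 1.14 (SE 0.26, unadjusted p = 3.4e-04), which did not pass after adjustment (adjusted p = 0.239). It passed in 4 of 11 alternatives, with values from 0.62 to 1.68 over all of them. The level rests on few cells. Those with a UMI were 32, 82, 131 and 173, or 2.45%, 7.21%, 6.81% and 7.02%, and the 10 richest cells held 76.2%, 33.8%, 25.9% and 24.2% of the *Batf3* UMIs. After thinning the shares were 1.10%, 4.38%, 1.92% and 2.50%, so the middle-aged day 6 library stayed highest while the share of the young day 10 library came closer to that of the young day 6 library. Over both ages *Batf3* did not pass for day (-0.36, SE 0.26, adjusted p = 0.539), and the value hung on the day 6 libraries: it was 0.69 (adjusted p = 0.0016) without the middle-aged and -1.26 (adjusted p = 1.7e-16) without the young one, and both of these passed. The listed dendritic cell genes summed to 60.0, 35.6, 38.0 and 34.6 CPM in cluster 2. Of these, *Ccr7* had 50.7, 30.2, 31.4 and 29.3 CPM, while *Flt3*, *Xcr1* and *Zbtb46* were at most 0.29, 0.42 and 0.58 CPM. The part of dendritic cell RNA in the *Batf3* level was not tested.

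*Irf4* (chr13:30749226-30766976) and *Bhlhe40* (chr6:108660629-108666925) had the same order of libraries. *Irf4* had 29.2, 62.9, 65.5 and 78.6 CPM, with the young day 6 library lowest and the other three close together. Its log2 change with day was 0.83 (SE 0.21, adjusted p = 0.0192), but it rested on the young day 6 library, without which it was 0.26 (adjusted p = 0.275). It was also lost without either day 10 library, with age left out of the model, and in DESeq2 (0.83, adjusted p = 0.0838). Cells with an *Irf4* UMI were 9.10%, 18.6%, 22.9% and 23.3%, and 3.06%, 6.85%, 9.21% and 10.8% after thinning, against 2.48% in cluster 1.

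*Bhlhe40* was the most abundant member, with 196, 310, 420 and 441 CPM. Both day 10 libraries lay above both day 6 libraries, and on day 6 the middle-aged library was above the young. The change with day was 0.91 (SE 0.21, adjusted p = 0.0100), and it was lost without either day 10 library and with age left out of the model. Without the young day 6 library it was 0.54 (adjusted p = 0.0090). Cells with a UMI were 41.8%, 55.8%, 69.5% and 67.2%, or 23.7%, 34.9%, 44.4% and 44.8% after thinning. In neutrophil-like cluster 6, with a median depth of 8134 UMIs, cells with a UMI were 24.1% for *Bhlhe40*, 7.13% for *Batf*, 0.713% for *Rora* and 0.428% for *Batf3*, and in cluster 2 they were 61.1%, 30.8%, 48.3% and 6.12% at a median of 5318 UMIs.

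Over the 4 libraries, 0 of the 9 members passed for age, where 7 of 11362 genes did (0.0616%, with 0.0528% lower and 0.0088% higher). An unadjusted p under 0.05 was reached by 279 genes. DESeq2 called 6 genes for age and no member. With the effect of age in the model, 3 of 9 members rose with day (*Bcl6*, *Bhlhe40* and *Irf4*) and none fell, against 7.22% of all genes that passed, 3.97% that rose and 3.25% that fell. The members' median log2 change with day was 0.16 and that of all genes was 0.00.

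**Figure D2:**
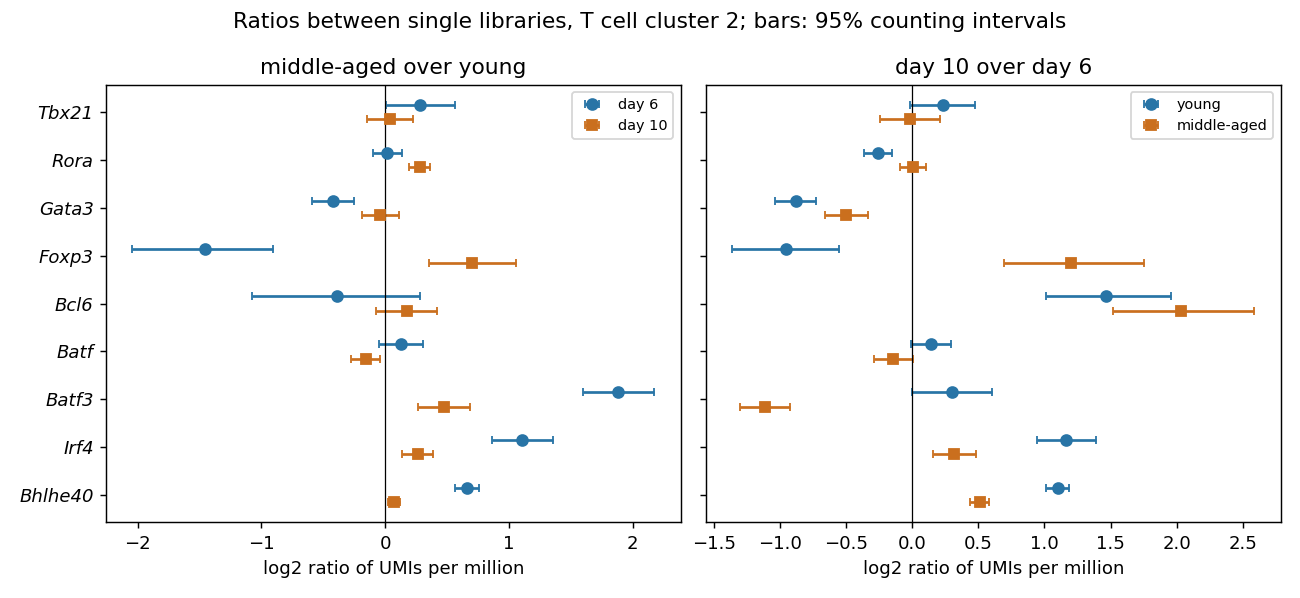
Log2 ratios of CPM between single libraries for each member in T cell cluster 2, middle-aged over young on each day (left) and day 10 over day 6 in each age (right), with 95% counting intervals. *Foxp3* lies on opposite sides of 0 in both panels, and *Batf3*, *Irf4* and *Bhlhe40* lie further to the right on day 6 than on day 10 in the left panel.

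Between single libraries of the same day, *Batf3*, *Irf4* and *Bhlhe40* had the ratios furthest above 0 on day 6. *Irf4* was higher in the middle-aged library by 1.11 (0.86 to 1.35) on day 6 and by 0.26 (0.14 to 0.39) on day 10. *Bhlhe40* was higher by 0.66 (0.56 to 0.76) on day 6 and by 0.07 (0.02 to 0.12) on day 10. The median ratio of genes with 100 or more UMIs was -0.07 on day 6 and 0.07 on day 10. *Bhlhe40* on day 10 thus did not differ from the bulk of genes. On day 6, 4 of 9 members had an interval above 0 and 2 (*Gata3* and *Foxp3*) one below, where 15.4% of genes with 100 or more UMIs lay above and 22.8% below. On day 10 it was 5 above and 1 below, where 20.9% and 9.36% of genes did. The cytokine *Il17a* was at 115, 702, 300 and 378 CPM and *Ifng* at 441, 1500, 559 and 361 CPM, so both were highest in the middle-aged day 6 library, while on day 10 *Ifng* was lower in the middle-aged library. Their part in the ratios was not tested. In cells without an *Il17a* UMI, young and middle-aged levels on day 6 were 17.1 and 47.2 CPM for *Batf3* and 25 and 48.1 CPM for *Irf4*. For *Bhlhe40* they were 191 and 284 CPM. In cells with an *Il17a* UMI, fewer in number, the levels of *Batf3*, *Irf4* and *Bhlhe40* were 48.0 and 180, 127 and 144, and 298 and 450 CPM. *Batf3* rested on 14 and 191 UMIs there, from 4 and 30 cells. *Irf4* rested on 37 and 153 UMIs and differed little there.

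From day 6 to day 10, 3 members had an interval above 0 and 3 below in young recipients, where 12.9% of genes lay above and 41.1% below. In middle-aged recipients it was 4 above and 2 below, where 17.3% and 26.6% of genes did. The median ratio of all these genes was -0.18 in young recipients, so a ratio of a member near that value did not differ from the bulk of genes. Taken relative to it, *Rora* in young recipients (-0.26, -0.36 to -0.15) moved little, while *Gata3* (-0.88, -1.03 to -0.73) was lower and *Irf4* (1.17, 0.95 to 1.39) and *Bhlhe40* (1.10, 1.01 to 1.19) were higher. In middle-aged recipients *Batf3* was lower on day 10, with -1.11 (-1.30 to -0.93), *Gata3* was lower by -0.50 (-0.66 to -0.33), and *Bhlhe40* was higher by 0.51 (0.44 to 0.58).

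The lists of partner genes gave these counts for day, by the same edgeR fit. Of 11 Th17 partners, 3 rose, among them *Maf* and *Runx1*. Of 7 Th1 partners, 2 fell, among them the interferon-induced factor *Irf1*, and *Stat4*, which carries the IL-12 signal, changed by -0.46 (adjusted p = 0.17). Of 9 partners of BATF, JUN and NFAT, the AP-1 genes *Jun*, *Junb* and *Fos* and the NFAT gene *Nfatc1* rose, while *Jund* had 0.55 (adjusted p = 0.10). *Tigit*, an inhibitory receptor, was the 1 of 15 tested Treg genes that rose, and none of 4 tested Th2 partners moved. Of the 9 receptors, the Th17 receptors *Il23r*, *Il1r1* and *Ccr6* rose, and 3 fell, among them the Th1 receptors *Il12rb1* and *Cxcr3*. Of 11 tested cytokines *Tnf* rose (1.52), and *Il17f* (-2.21), *Il22* (-1.53) and *Il2* (-0.65) fell, but each of these calls was lost without 1 or more of the libraries. Without the middle-aged day 6 library *Il22* was at 0.43, and without the middle-aged day 10 or the young day 6 library *Il2* was at 0.080 or 0.067. For age, *Il22* rose (2.60, SE 0.22, adjusted p = 9.1e-06) and *Il2* fell (-1.36, SE 0.19, adjusted p = 0.0029), both calls were lost when any 1 library or the term for day was left out, and no other gene of the lists passed.

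The members were next compared between classes of T cells within the same libraries. A class was set by a UMI of a gene that marks a fate or function: *Foxp3*, *Il17a*, *Ifng* or *Csf2*, which encodes GM-CSF. UMIs were summed over cells with and without that UMI in each library, and the 8 sums were compared with the library in the model. The test weighs a difference against a spread that is partly shared between genes. For *Foxp3* UMI cells the weight of the shared part was infinite, so those p-values do not rest on the gene's own spread over the 4 libraries. In the other comparisons it was 11.11 to 28.95 degrees of freedom, against 3 of the gene itself. In the fit of age and day in cluster 2 it was 16.89, against 1 of the gene itself. A shallow cell can express the gene without a captured UMI, and free RNA can give a UMI to a cell that does not express it. In cluster 1 the shares of cells with a UMI were 0.643% for *Il17a*, 1.96% for *Ifng* and 0.435% for *Csf2*, against 10.5%, 27.5% and 14.2% in cluster 2.

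**Figure D3:**
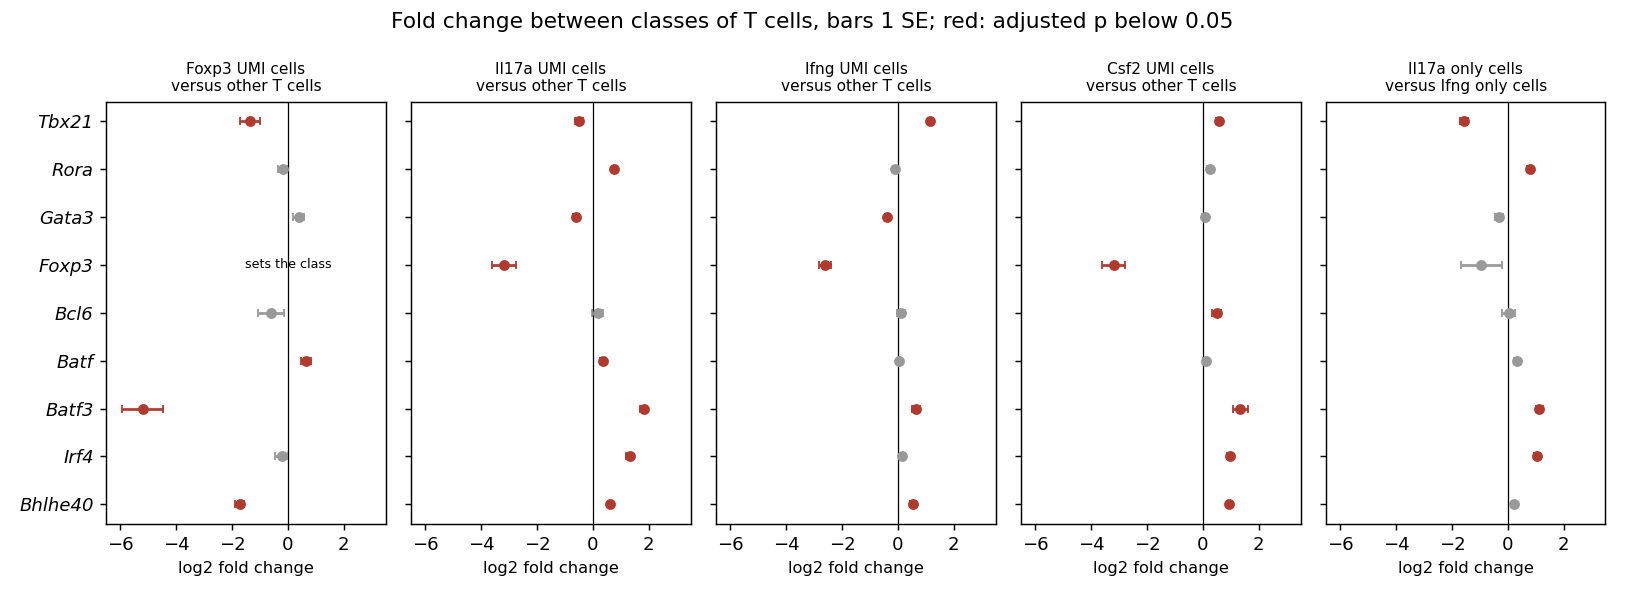
Fitted log2 fold changes of the 9 members between classes of T cells (horizontal axes, bars 1 SE) in the 5 comparisons, with those of adjusted p below 0.05 in red. *Batf3* lies far to the left in *Foxp3* cells and to the right in the cytokine classes, and *Tbx21* and *Rora* point opposite ways where *Il17a* only and *Ifng* only cells are compared.

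*Foxp3* UMI cells (37, 19, 48 and 88) nearly lacked *Batf3*. They held 0, 0, 1 and 0 *Batf3* UMIs, against 18.8, 68.5, 22.9 and 32.4 CPM in the other T cells of the same libraries. Pooled, the level was 34.0-fold lower (6.10 to 1345), with only 1 UMI behind it. The test passed (adjusted p = 8.8e-11), and its fitted log2 value of -5.20 (SE 0.73) depends on the prior count. With classes set on thinned cells it did not pass (adjusted p = 0.138).

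*Bhlhe40* was lower in *Foxp3* UMI cells in all 4 libraries, with 87.6, 12.7, 141 and 212 CPM against 199, 313, 425 and 449 CPM. The log2 difference was -1.73 (SE 0.17, adjusted p = 1.0e-20), and it passed in all 11 alternatives. *Tbx21* was lower by -1.36 (SE 0.36, adjusted p = 0.0036), which was lost in DESeq2, after thinning, and without the middle-aged day 10 library. *Batf* went the other way, with 159, 331, 101 and 109 CPM in *Foxp3* UMI cells against 71.9, 78.1, 81.6 and 72.2 CPM. Its difference was 0.67 (SE 0.18, adjusted p = 0.0047), lost in 5 alternatives, among them without either day 6 library.

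That makes 1 member higher and 3 lower of the 8 tested, where 8.48% of genes passed, 3.86% as higher and 4.62% as lower. *Gata3* was higher in all 4 libraries, with 121, 127, 109 and 70.6 CPM against 95.7, 71.2, 51.3 and 50.2 CPM, but did not pass (0.39, SE 0.20, adjusted p = 0.288). *Rora* (-0.18), *Irf4* (-0.22) and *Bcl6* (-0.61) did not pass. Without the young day 6 library *Irf4* was lower and passed (-0.85, adjusted p = 0.0216).

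The class carried the genes of Treg cells. Of 15 tested Treg genes 9 were higher, among them *Ikzf2* (Helios, 4.32, SE 0.15), *Izumo1r* (folate receptor 4, 4.24, SE 0.17), *Il2ra* (CD25, 1.86) and *Ctla4* (2.06). The cytokine *Il10* was higher (4.46, SE 0.42), and *Ifng* (-3.00, SE 0.17), *Il17a* (-3.12, SE 0.21) and *Csf2* (-2.62, SE 0.23) were lower. *Ighm*, an immunoglobulin gene, was also among the leading genes, at 345, 204, 291 and 176 CPM against 66.5, 35.8, 19.7 and 15.1 CPM. The B cell gene *Cd79a* did not differ beyond the threshold (0.24, SE 1.18, adjusted p = 0.963), and *Cd79b* had 1.56 (SE 0.59, adjusted p = 0.0827). *Foxp3* UMI cells were shallower in each library, with medians from 3416 to 4788 UMIs against 4718 to 6240 UMIs, and the part of depth was not tested.

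In *Il17a* UMI cells (43, 125, 195 and 351), 5 members were higher and 3 lower of the 9, where 13.1% of genes passed, 7.09% as higher and 6.02% as lower. *Batf3* differed most among those that were higher, with 48.0, 180, 69.7 and 67.1 CPM against 17.1, 47.2, 15.6 and 22.6 CPM. It was higher in 4 of 4 libraries, with a log2 difference of 1.82 (SE 0.12, adjusted p = 1.6e-13). The 48.0 CPM of the young day 6 library rested on 14 UMIs in 4 cells. *Irf4* followed, with 127, 144, 111 and 144 CPM against 25, 48.1, 58.8 and 62.6 CPM (1.31, SE 0.12, adjusted p = 1.0e-09). Every *Il17a* UMI sum of *Irf4* lay above every other sum.

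*Rora*, whose product acts in the Th17 fate, had 319, 259, 242 and 239 CPM in *Il17a* UMI cells against 164, 157, 128 and 157 CPM, again with no overlap (0.76, SE 0.08, adjusted p = 4.0e-08). *Bhlhe40* was higher in each library, at 298, 450, 595 and 616 CPM against 191, 284, 394 and 398 CPM (0.60, SE 0.08, adjusted p = 4.9e-07). These 4 members passed in all 11 alternatives. *Batf* was higher by 0.36 (SE 0.10, adjusted p = 0.0132), which was lost in 5 of them.

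*Foxp3* had 2, 0, 0 and 6 UMIs in *Il17a* UMI cells, 9.02-fold (4.54 to 21.0) below the pooled level of the other T cells (adjusted p = 9.2e-07). *Gata3* was lower by -0.60 (SE 0.11, adjusted p = 2.4e-04), lost when the cells or the classes were thinned. *Tbx21* was lower by -0.50 (SE 0.14, adjusted p = 0.0158), lost in 6 alternatives, among them without cells carrying CD8, γδ or NK genes. *Bcl6* did not pass (0.17, SE 0.20).

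The *Il17a* class was not conventional Th17 cells alone. Besides *Il17f* (6.70, SE 0.25) and *Il21*, its leading genes were the γδ T cell genes *Trdc* (2.28, SE 0.11) and *Trdv4* (3.97, SE 0.24). Cells with a *Trdc* UMI were 27.9%, 7.20%, 10.3% and 11.1% of the class, against 3.96%, 2.27%, 2.84% and 2.79% of the other T cells. The calls of *Batf3*, *Irf4*, *Rora* and *Bhlhe40* held without the cells that carry CD8, γδ or NK genes. Of 11 Th17 partners, 6 were higher (among them *Maf*, *Hif1a*, *Runx1*, *Fosl2* and *Etv6*) and *Ahr* was lower.

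In *Ifng* UMI cells (255, 296, 641 and 683), *Tbx21* had 53.2, 55.9, 44 and 52.4 CPM against 20.0, 23.4, 25 and 23.5 CPM. The classes did not overlap, and the difference was 1.17 (SE 0.10, adjusted p = 1.9e-06). *Batf3* (0.66, SE 0.15, adjusted p = 0.0064, lost without the middle-aged day 6 library) and *Bhlhe40* (0.54, SE 0.10, adjusted p = 0.0013) were higher as well. *Foxp3* (-2.61, SE 0.21, adjusted p = 1.3e-06) and *Gata3* (-0.38, SE 0.07, adjusted p = 0.0024) were lower. That makes 3 members higher and 2 lower of 9, where 19.5% of genes passed, 10.0% as higher and 9.5% as lower. *Rora* (-0.11), *Batf* (0.04), *Irf4* (0.15) and *Bcl6* (0.11) did not pass.

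The other Th1 partners did not follow *Tbx21* as a list. Of 7, *Zeb2*, a zinc-finger repressor, was higher (0.84, SE 0.09), and 3 were lower, among them *Eomes* (-1.76) and *Irf1* (-0.80). The leading genes were the chemokine *Ccl4*, the granule gene *Nkg7*, the checkpoint receptor *Havcr2*, *Dusp2* and *Rgs16*. The leading genes that were lower included *Tcf7* (-2.20, SE 0.09), which marks naive and central memory T cells.

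In *Csf2* UMI cells (49, 133, 398 and 389), *Bhlhe40* had 455, 542, 590 and 627 CPM against 181, 268, 357 and 387 CPM. There was no overlap, and the difference was 0.94 (SE 0.09, adjusted p = 8.7e-07). *Irf4* had 68.8, 109, 91.6 and 125 CPM against 27.0, 54.8, 55.9 and 65.0 CPM (0.97, SE 0.10, adjusted p = 3.3e-06). *Batf3* had 159, 97.9, 33.2 and 53.4 CPM against 10.4, 62.4, 18.7 and 24.9 CPM, with sums that overlap between libraries (1.34, SE 0.28, adjusted p = 0.0026). That call was lost in DESeq2. The 159 CPM came from 60 UMIs in 10 of the 49 young day 6 cells.

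*Tbx21* was also higher in the *Csf2* class (0.59, SE 0.12, adjusted p = 0.0017), which was lost with classes set on thinned cells, as was *Bcl6* (0.50, SE 0.16, adjusted p = 0.0431), which was lost in 9 of 11 alternatives. *Foxp3*, with 0, 0, 0 and 11 UMIs, was 9.73-fold lower (5.38 to 19.6). *Rora* (0.26, SE 0.09, adjusted p = 0.0672), *Gata3* (0.07) and *Batf* (0.12) did not pass. That makes 5 members higher and 1 lower of 9, where 14.2% of genes passed, 7.32% as higher and 6.87% as lower. Of the 9 partners of BATF, JUN and NFAT, 5 were higher (*Junb*, *Jund*, *Fos*, *Irf8* and *Nfatc1*) and none lower. Cytokine UMI cells were deeper than the others in every library and class, with medians up to 8500 UMIs against at most 6066 UMIs.

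Depth differed less where *Il17a* only cells (39, 108, 161 and 283) were set against *Ifng* only cells (251, 279, 607 and 615). *Tbx21* was at 11.3, 16.7, 18.1 and 18.3 CPM against 54.0, 54.6, 43.9 and 51.3 CPM, with no overlap (-1.57, SE 0.16, adjusted p = 3.6e-08). *Rora* was higher by 0.78 (SE 0.09, adjusted p = 1.4e-07), *Irf4* by 1.05 (SE 0.11, adjusted p = 8.0e-08) and *Batf3* by 1.12 (SE 0.13, adjusted p = 2.4e-07). That makes 3 members higher and 1 lower of 9, where 7.94% of genes passed, 4.16% as higher and 3.78% as lower. The calls of *Tbx21*, *Rora* and *Irf4* passed in all 11 alternatives, and that of *Batf3* was lost with classes set on thinned cells (0.62, adjusted p = 0.389). *Bhlhe40* (0.22, SE 0.08, adjusted p = 0.0876), *Batf* (0.31, SE 0.11, adjusted p = 0.0710), *Gata3* (-0.31), *Foxp3* (-0.96) and *Bcl6* (0.03) did not pass, although *Bhlhe40* (0.28, adjusted p = 0.0182) and *Batf* (0.35, adjusted p = 0.0266) did without the young day 6 library. Of 11 Th17 partners, 7 were higher and 1 lower. Among 5 tested Th1 partners 2 were higher in the *Il17a* only cells, *Irf1* among them. The leading genes included the γδ genes *Cd163l1* and *Trdc* (4.24, SE 0.23) on the *Il17a* side and the cytotoxic genes *Gzma*, *Klrd1* and *Nkg7* on the *Ifng* side. Cells with both cytokines numbered 4, 17, 34 and 68.

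Single T cells held several members. Of the 6830 cells, 999 (14.6%) had no UMI of any member, 1514 had 1 member, 1623 had 2, and 1 cell had 8. Of the 418 cells with a *Batf3* UMI, 93.3% had a *Bhlhe40* UMI, against 61.1% of all T cells, 58.6% had *Batf* against 30.8%, and 43.1% had *Irf4* against 19.7%. Of the 192 cells with a *Foxp3* UMI, 33.9% had *Bhlhe40*, 33.3% had *Gata3* against 24.9%, and 1 cell (0.521%) had *Batf3*. These shares come from cells of 4 libraries and move with depth, and they are a description.

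Across the 16 deposited clusters each member had its own pattern. The clusters carry no names in the table. By markers, clusters 0, 3 and 6 were neutrophil-like, 1 and 5 monocyte/macrophage-like, 4 B cell-like, 7 dendritic cell-like, 8 and 10 microglia-like and 9 NK-like, while the mixed or dividing clusters 11 to 15 were left unnamed. Levels below are over the 4 libraries together, with the lowest and the highest library, among libraries of 20 or more cells of the cluster. Cluster 15 had 59 cells and is left out of the orders.

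**Figure D4:**
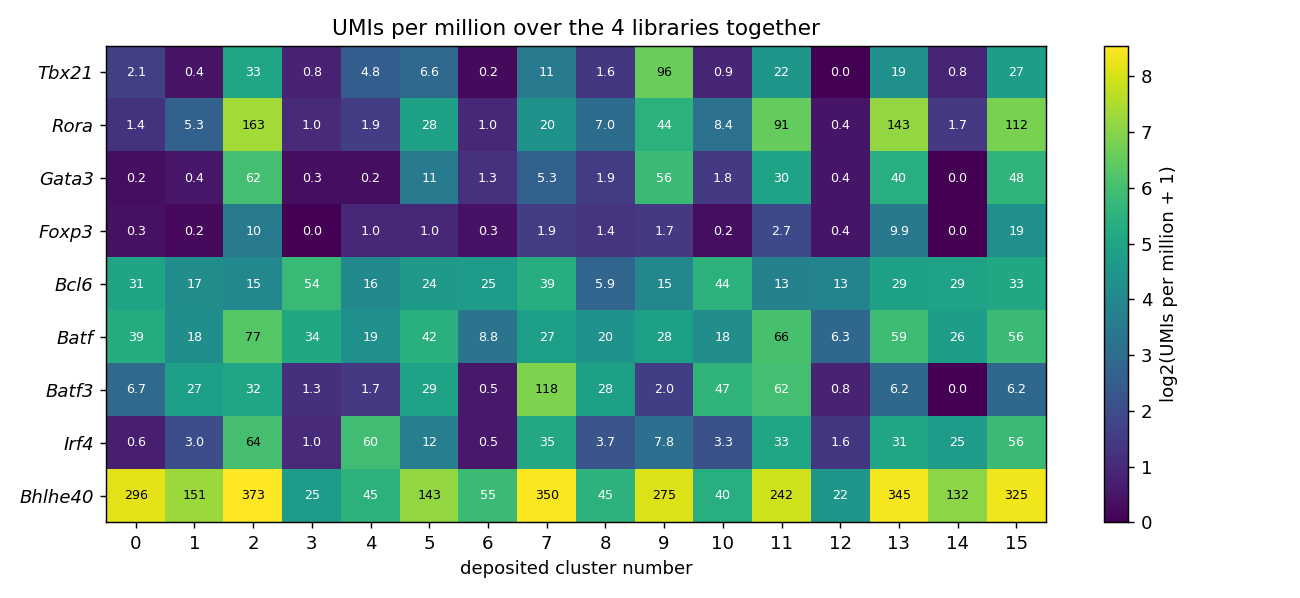
Level of each member in each deposited cluster, as log2 of CPM plus 1 over the 4 libraries together (color scale). *Rora*, *Gata3*, *Batf*, *Irf4* and *Bhlhe40* peak in T cell cluster 2, *Foxp3* in clusters 2, 13 and 15, *Tbx21* in cluster 9, *Bcl6* in cluster 3 and *Batf3* in cluster 7.

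*Tbx21* was highest in NK-like cluster 9, with 96.1 CPM (71.4 to 114), followed by cluster 2 with 32.7 CPM (28.1 to 34.2) and cluster 11 with 21.9 CPM (18.2 to 26.8), and these ranges did not overlap. NK cells are known to use T-bet. *Rora* was highest in cluster 2 with 163 CPM (143 to 173), followed by cluster 13 with 143 CPM (82.2 to 244), which overlaps it, and cluster 11 with 90.5 CPM (47.8 to 117), which does not. *Gata3* was at 62.1 CPM (50.9 to 96.3) in cluster 2 and 55.7 CPM (44.7 to 84.6) in cluster 9, which overlap, as do clusters 11 and 13. *Foxp3* was at 10.2 CPM (5.39 to 14.8) in cluster 2 and 9.91 CPM (2.38 to 20.4) in cluster 13, and at most 2.73 CPM in the others, while cluster 15 had 9 UMIs in 3 cells (18.6 CPM).

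*Bcl6* was not led by T cells. It was at 54.4 CPM (44.3 to 56.5) in neutrophil-like cluster 3, 44.5 CPM (33.6 to 65.8) in microglia-like cluster 10 and 39.2 CPM (36.1 to 42.0) in dendritic cell-like cluster 7, which do not overlap with the 14.8 CPM (4.95 to 20.3) of cluster 2. *Batf* was highest in cluster 2 with 77.5 CPM (73.5 to 82.0), with clusters 11 (65.6 CPM) and 13 overlapping it. Neutrophil-like cluster 3, at 34.1 CPM (14.8 to 109), overlapped it too. *Irf4* was at 63.8 CPM (29.2 to 78.6) in cluster 2 and 59.7 CPM (41.8 to 91.8) in B cell-like cluster 4. *Batf3* peaked in dendritic cell-like cluster 7 with 118 CPM (102 to 135), above every other named cluster, and the unnamed cluster 11 at 62.4 CPM (18.6 to 104), with cluster 2 at 32.2 CPM (18.4 to 67.8).

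*Bhlhe40* was broad. It was at 373 CPM (196 to 441) in cluster 2, 350 CPM (312 to 428) in cluster 7, 345 CPM (260 to 396) in cluster 13, 296 CPM (200 to 391) in cluster 0 and 275 CPM (238 to 316) in cluster 9, and all of these ranges overlap.

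In the 12 other clusters that could be fitted, 72 pairs of a member and a cluster were tested. For age, 17 of these had an unadjusted p below 0.05. The share of all gene and cluster pairs at that threshold was not counted, so the 17 are not a result about the members. After adjustment 1 pair passed and was higher, where 0.363% of all gene and cluster pairs passed. It was *Batf* in B cell-like cluster 4, with a log2 change of 1.46 (SE 0.38, adjusted p = 0.0162), where 0.693% of genes of that cluster were higher, and it was lost when any 1 library was left out. In cluster 4 the weight of the shared spread was infinite, so the p-value of *Batf* there does not rest on the gene's own spread. For day, 3 passed as higher and 10 as lower, where 16.1% of all pairs passed in either direction. The share of the 72 pairs called for day was thus near that of all pairs.

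**Figure D5:**
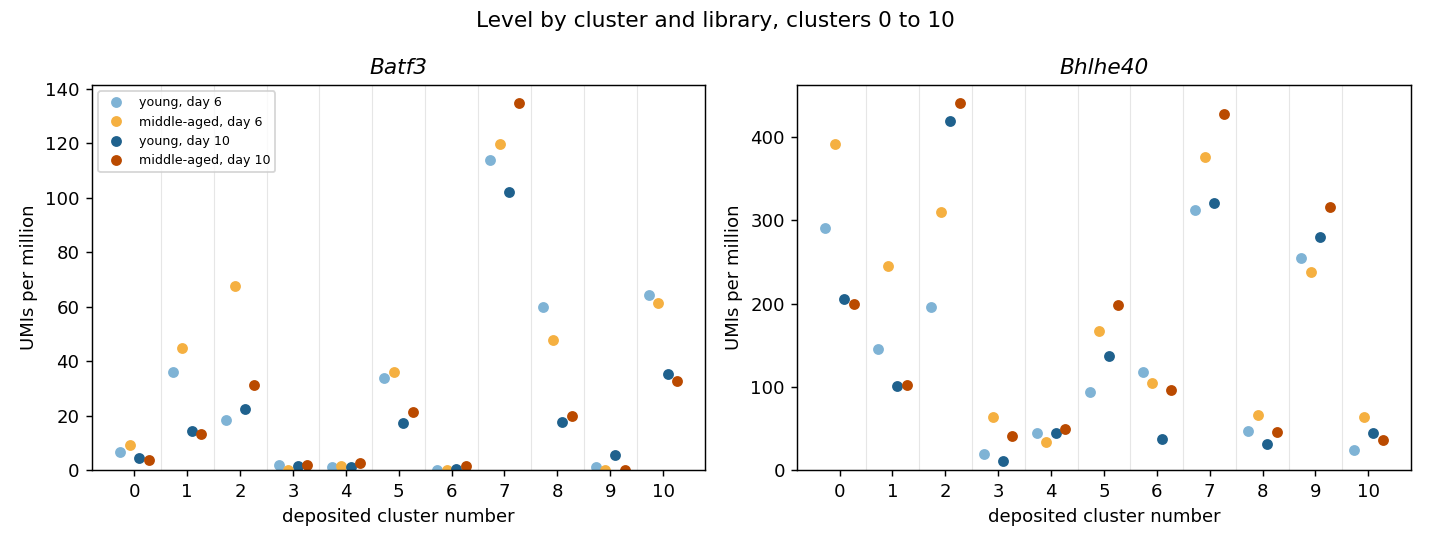
Level (CPM) of *Batf3* and *Bhlhe40* in clusters 0 to 10 (horizontal axes), with 1 point per library. In clusters 1, 5, 8 and 10 both day 10 points of *Batf3* lie below both day 6 points, while in T cell cluster 2 the middle-aged day 6 point stands apart, and *Bhlhe40* is higher on day 10 in cluster 2 and lower on day 10 in clusters 0 and 1.

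*Batf3* was lower on day 10 in clusters 0, 1, 5, 8 and 10, which are of myeloid kinds. In monocyte/macrophage-like cluster 1 it had 35.9, 44.8, 14.5 and 13.3 CPM (-1.70, SE 0.20, adjusted p = 4.2e-05), and in cluster 5 it had 34.0, 36.2, 17.4 and 21.5 CPM (-1.15). In the microglia-like clusters it had 59.9, 47.7, 17.6 and 20.0 CPM in cluster 8 (-1.21) and 64.3, 61.3, 35.3 and 32.8 CPM in cluster 10 (-0.73). Of all genes tested in clusters 0, 1, 5, 8 and 10, 27.2%, 15.2%, 15.3%, 6.9% and 3.46% were lower on day 10. In clusters 1, 5, 8 and 10 both day 6 libraries lay above both day 10 libraries. The calls in clusters 5 and 8 were lost without the young day 10 library, and that in cluster 10 without either day 10 library. In dendritic cell-like cluster 7 it had 114, 120, 102 and 135 CPM, and the days overlapped.

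*Bhlhe40* was lower on day 10 in clusters 0, 1 and 6, where it rose in T cells. In cluster 0 it had 291, 391, 206 and 200 CPM. The fit gave -1.50 (SE 0.15, adjusted p = 1.0e-06), of which a part is scaling, since the median gene of cluster 0 was 0.84 higher on day 10 in unscaled CPM and the fit sets that median near 0. The same holds for *Batf* in cluster 0, whose 57.9, 35.9, 37.7 and 28.6 CPM overlap between days while the fit gave -1.23 (SE 0.16). *Batf3* (-1.76) and *Tbx21* (-2.48, from 14, 30, 3 and 6 UMIs) fell there as well. In cluster 1 *Bhlhe40* fell by 1.06 on the log2 scale (SE 0.23, adjusted p = 0.0040), lost without either day 10 library, and the shift of the median gene was 0.20. In cluster 6, where 6.16% of genes were lower, it fell by 1.02, which was lost in 5 of 6 alternatives.

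*Rora* rose with day in clusters 1 (1.30, SE 0.25), 5 (0.78) and 8 (2.16), where 14.7%, 10.2% and 6.5% of genes rose. The call in cluster 1 was lost without either day 10 library, and that in cluster 5 without the young day 6 library or either day 10 library. A T cell gene, *Cd3g*, was also higher on day 10 in these clusters, though by little in young recipients of cluster 1. *Cd3g* was at 5.43, 2.09, 6.40 and 7.88 CPM in cluster 1, 64.8, 96.3, 250 and 337 CPM in cluster 5 and 20.0, 23.8, 52.3 and 56.8 CPM in cluster 8, against 1066 to 1325 CPM in cluster 2. Its part in the result was not tested.

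The genes whose levels were most like those of a member were found over 57 sums of a cluster and a library. They were compared by Pearson's r of log2(CPM + 1) among 9440 genes, and the sums share libraries and cell types, so r is a description. *Rora* was most like *Cd28* (r = 0.965) and *Icos* (r = 0.964), both co-stimulatory receptors, and *Gata3* was most like *Cd247* (r = 0.964), the T cell receptor zeta chain. *Tbx21* was most like *Sytl3* (r = 0.920), *Foxp3* like *Izumo1r* (r = 0.830), *Irf4* like *Trp53i11* (r = 0.897) and *Bhlhe40* like *Traf1* (r = 0.897). *Bcl6* (*Taok1*, r = 0.821), *Batf3* (*Cetn4*, r = 0.827) and *Batf* (*Furin*, r = 0.760) had neighbors with a lower r.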

How the data were processed

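Per the labels and the study's methods, the authors made 10x Genomics v3 libraries, which they aligned and counted in CellRanger v3.1.0 (mm10, GENCODE vM23, Ensembl 98) and filtered in Seurat 4.0.4. Cells were kept with 200 or more genes, at most 25000 reads, a depth within 5 median absolute deviations, under 10% mitochondrial and under 50% ribosomal reads. Genes were kept if found in 3 or more cells. The authors deposited raw UMI counts, not normalized, with a cluster number per cell, and cells were not clustered again. No doublet caller was run. Cells with UMIs of other lineages' markers were left out as an alternative. The 2 bulk libraries of naive microglia were not used.

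UMIs were summed by library over cluster 2, its cell classes and the other clusters. Genes with 10 or more counts in 2 or more sums were fitted with edgeR 4.0.16 (TMM, quasi-likelihood test, R 4.3.3, limma 3.58.1), with age and day as terms (4 libraries, 1 residual degree of freedom) or class and library (8 sums, 3 residual degrees of freedom), and p-values were adjusted over all genes tested. DESeq2 1.42.0 was an alternative. Others changed the size factors, the filter, the depth, the class rule, the cells and the terms, or left out a library. Clusters with 20 or more cells in each library were fitted. Promoter letters come from RefSeq. Tests were run on simulated counts that had 1 spread for all genes and no effect of library handling, so they cannot check the lack of replicates. Of genes changed by 1 on the log2 scale, 68% were recovered for age, 66% for day and 19% for *Foxp3* UMI cells. In the other class comparisons it was 76% to 87%. Intervals cover counting error only. The total of cluster 2 was 7082247, 6863419, 13857813 and 15450730 UMIs, in the order young day 6, middle-aged day 6, young day 10, middle-aged day 10. Every cell column was mapped to a library by its name.

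The members, the lists and the classes were chosen with earlier results of these data known. The text names the members, for each member the genes with the most similar levels among those of 1000 or more UMIs, the 5 called genes of smallest p in each direction of a class comparison, and listed partners that were called or fixed by name; *Cd79a*, *Cd79b* and the lineage markers were named as checks. Some genes of the lists are not reported here.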

Additional observations from a re-analysis of the deposited data

Results flagged for a closer look

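*Foxp3* in T cell cluster 2 drew attention because its ratio between the ages had opposite signs on the 2 days. On the log2 scale the middle-aged library stood to the young one at -1.46 on day 6 (5.39 against 14.8 CPM) and 0.70 on day 10 (12.4 against 7.65 CPM). By the same values, the ratio of day 10 over day 6 was -0.95 in young and 1.20 in middle-aged recipients. The difference between the ages was not tested, since there was 1 library per age and day. The 4 levels rest on 37, 19, 48 and 88 cells with a *Foxp3* UMI, in the order young day 6, middle-aged day 6, young day 10, middle-aged day 10. In the same order, the 10 richest cells held 52.4%, 73.0%, 39.6% and 27.6% of the *Foxp3* UMIs. The intervals take each UMI as a separate draw and are too narrow for that reason. After thinning each cell to 2000 UMIs the ratios were -1.01 (-1.93 to -0.16) on day 6 and 0.56 (-0.08 to 1.22) on day 10, and the interval of the second then included 0.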

How the results depend on the processing

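No paired analysis was possible because each age and day had 1 library. With 1 library left out, the fits for age or day held only the tested factor, and the cause of a change in such a fit was not tested. For age in T cells, 7 genes passed, and 16 with relative log size factors, 21 on thinned cells, 0 without day in the model, 34 without a filter, 42 without cells carrying other lineages' markers, and 0 to 0 without each library in turn. For day, 820 genes passed, 379 in DESeq2 and 279 to 1925 without each library. For *Foxp3* UMI cells it was 960, then 597 in DESeq2, 472 on thinned cells, 448 with thinned classes and 601 to 866 without each library. For *Il17a* UMI cells it was 1464, then 733, 591, 459 and 830 to 1291. For *Ifng* UMI cells it was 2127, then 966, 1280, 889 and 1303 to 1777. For *Csf2* UMI cells it was 1572, then 954 in DESeq2, 675 with thinned classes and 1005 to 1545. For *Il17a* only against *Ifng* only cells it was 773, then 332, 342, 249 and 408 to 768. Thinning leaves fewer UMIs per sum. In the other clusters, 1 pair of a member and a cluster passed for age, 2 with relative log size factors, 7 without a filter and 0 to 1 without each library, and 13 for day, with 5 to 18 without each library. Of the members' ratios between ages on day 10, 6 had an interval off 0, and 2 after thinning. Without each library in turn, the day effect changed sign for *Batf3* (-1.26 to 0.69), *Foxp3* (-0.42 to 0.96), *Rora* (-0.11 to 0.10), *Il17a* (-0.99 to 1.70), *Il2* (-1.58 to 0.080), *Il22* (-3.20 to 0.43), *Ifng* (-1.63 to 0.21), *Il10* (-0.21 to 0.94), *Ikzf2* (-0.38 to 0.65) and *Il2ra* (-0.62 to 0.59). Without cells carrying CD8, γδ or NK genes, an alternative added after the data were seen, *Batf* (0.47) and *Gata3* (-0.46) also passed between *Il17a* only and *Ifng* only cells. Fewer than 50 cells in a class, as for *Foxp3* and, in the young day 6 library, for *Il17a* and *Csf2*, limit what can be detected there.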
